A study of Mus musculus with 16 samples.

Results

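The circadian clock genes examined here were Per1, Per2, Cry1, Cry2, Clock, Dbp, Nr1d1, Nr1d2 and Tef. Their probe sets were taken as those to which the annotation of the array platform gives exactly 1 gene symbol, that of 1 of these 9 genes. This found 11 probe sets for the 9 genes, 3 for Cry1 and 1 for each of the other genes, of 12488 probe sets in all. Of the 12422 that are not controls, 10833 have 1 symbol and stand for 8251 genes. The arrays were hybridized with total lung RNA of mice that lack T1α, the type I cell protein encoded by Pdpn, and of wild type mice. There were 3 T1α(-/-) and 3 T1α(+/+) lungs at term, obtained within minutes of normal delivery, and 5 T1α(-/-) and 5 T1α(+/+) fetal lungs at E18.5. The null allele is carried in the germ line, so all cells of a (-/-) animal lack T1α, and the animals came from crosses of heterozygous mice. Each array carries 1 labelled lung RNA sample. Neither the litter nor the hour at which the lungs were taken is given in the sources used here, so for genes of the clock the stage and the hour of collection cannot be told apart.

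The mammalian circadian clock is a feedback loop of transcription that runs in nearly every cell. CLOCK and its partner BMAL1 (Arntl) bind E-boxes and drive the Per and Cry genes, whose protein products return to the nucleus and repress CLOCK and BMAL1. A further loop is closed by the nuclear receptors REV-ERBα (Nr1d1) and REV-ERBβ (Nr1d2), which are driven by E-boxes and repress Arntl and other genes through ROR elements, where the ROR receptors activate. DBP and TEF are PAR bZIP factors, output regulators that bind D-boxes, and Per1 also answers directly to cAMP, growth factor and glucocorticoid signals. In adult lung these transcripts cycle over the day. In fetal tissues rhythms are known to be weak or absent until around birth.

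The letters that the clock factors bind are shown for the start sites that carry them, because the arms of the loop act through these elements. RefSeq promoter windows (GRCm38.p6) of 250 bases before to 50 bases after each start site were given for 8 of the 9 genes, at 12 start sites. They were searched on both strands for the E-box CACGTG, the E'-box CACGTT, the D-box TTATGTAA or TTATGCAA, the ROR half-site AGGTCA and the CRE TGACGTCA, and 8 start sites of 7 genes held at least 1 of these before the start. The stretch around the matches is printed for all of these but the 1 of Clock, 5′ to 3′ on the gene's strand, with the matched letters of either strand in capitals.
Cry1, chr10:85185094-85185148, minus strand: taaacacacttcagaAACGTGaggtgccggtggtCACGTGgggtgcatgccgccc
Per1, chr11:69098768-69098947, plus strand: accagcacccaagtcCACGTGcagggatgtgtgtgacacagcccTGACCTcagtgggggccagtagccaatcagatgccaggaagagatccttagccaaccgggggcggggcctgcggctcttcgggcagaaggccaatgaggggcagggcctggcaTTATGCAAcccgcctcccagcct
Nr1d1, chr11:98775385-98775420, minus strand: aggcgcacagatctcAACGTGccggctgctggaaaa
Nr1d2, chr14:18239163-18239198, minus strand: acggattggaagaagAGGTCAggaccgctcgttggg
Tef, chr15:81802531-81802566, plus strand: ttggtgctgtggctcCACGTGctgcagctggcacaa
Tef, the other start site, chr15:81811261-81811296, plus strand: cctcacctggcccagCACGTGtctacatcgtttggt
Cry2, chr2:92434215-92434250, minus strand: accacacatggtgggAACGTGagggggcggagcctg

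Cry1 held an E'-box that begins 79 bases before its start and an E-box that begins 60 bases before it. Per1 held an E-box at 166, a ROR half-site at 137 and a D-box at 24 bases before its start. Both start sites of Tef held an E-box, at 127 and 138 bases before the start. Nr1d1 and Cry2 held an E'-box, and Nr1d2 and 1 of the start sites of Clock a ROR half-site. Before the start, an E-box was present in 6.02% of all 32851 windows, an E'-box in 3.85%, a ROR half-site in 4607 of them, a D-box in 1.5% and a CRE in 1.55%. The windows of Dbp held none of these letters, and no window of a member held the CRE. These matches describe the letters only.

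On all 16 arrays the mean signal, with the lowest and highest 2% of values left out, was 100.04 to 100.06, so that signals are relative to that of the array, and correlations between arrays were 0.769 to 0.987 over 120 pairs. T1α itself was 1.4 to 30.0 in (-/-) lungs and 39.7 to 214.9 in (+/+) lungs and did not overlap at either stage. The stages differed in more than the clock genes. The highest signal of an array was 6159.4 to 10575.8 at term and 12978.7 to 29523.9 at E18.5, and the summed signal of 4 lung epithelial markers was 10976.2 to 15378.2 at term and 15267.0 to 32704.3 at E18.5. Sftpc had the largest signal of the 4, and Scgb1a1 went against the sum. The mean of Scgb1a1 in (-/-) lungs was 4772.2 at term and 2794.4 at E18.5. In (+/+) lungs it was 4421.0 at term and 1969.3 at E18.5. The 3′ to 5′ signal ratio of GAPDH, a measure of RNA integrity, was 0.827 to 2.633 at term and 0.962 to 1.723 at E18.5. The (+/+) array I at E18.5 stood apart, with a median signal of 61.0 against 35.8 to 47.6 on the others. Its low signals were raised, since 15 bacterial control probe sets (other than bioB and bioC) averaged 35.3 there. On the other arrays they averaged 3.58 to 11.05. The summed signal of 3 markers of embryonic and immature red cells was 203.9 to 680.9 at term and 492.2 to 2879.0 at E18.5. In whole lung, fewer cells of a type and less RNA per cell cannot be told apart. The summed signal of 4 heart markers was 658.3 to 10460.5, and those of liver, thymus, skeletal muscle and nerve reached at most 225.1. The sex of the animals is not given, and Xist, made from the inactive X, had signals of 6.7 to 75.8 at term and 14.3 to 99.8 at E18.5, and the Y-linked Eif2s3y had 6.5 to 58.9 at term and 2.1 to 49.6 at E18.5. The part of these differences in the results was not tested, and the GAPDH ratio was only used as a covariate in an alternative fit.

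Not all members gave a measurable signal. A probe set entered a test across all genes only if its median in at least 1 group was above a threshold, set so that 45% of all values in the arrays compared lay above it, and this threshold was 48.7 to 54.3. Signals of different probe sets are not comparable as amounts of RNA. Of the 3 Cry1 probe sets, 94421_r_at and 161225_r_at had signals of at most 6.6 on every array. Their suffix marks probes chosen under relaxed rules, and they gave no measurable signal. The third, 94420_f_at, gave 144.2 to 459.5, and its suffix marks probes that may also bind other members of a sequence family, so the Cry1 values below are those of 1 probe set. Clock and Dbp did not pass the filter in any comparison. In the fit of all arrays 6 of the 11 probe sets passed it, those of Per1, Cry1, Cry2, Nr1d1, Nr1d2 and Tef.

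**Figure D1:**
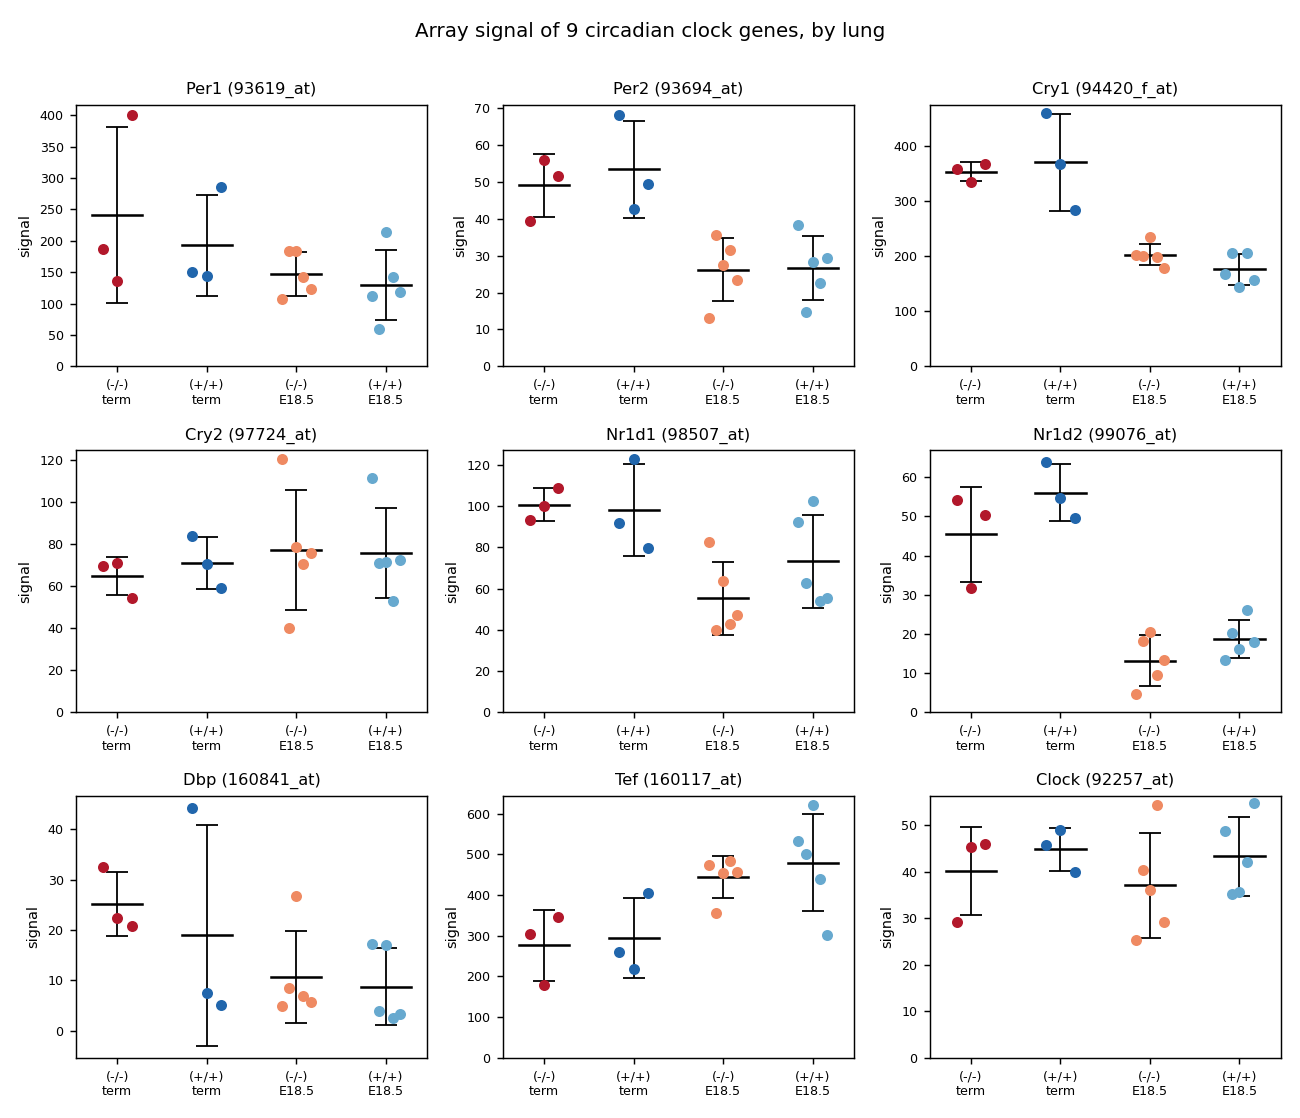
Signal (linear scale, arrays scaled to a common mean) of 1 probe set for each of the 9 clock genes, by group; points are arrays, the long line is the mean and the bars are 1 SD, with 3 arrays per genotype at term and 5 at E18.5. Cry1, Per2 and Nr1d2 lie higher on all term arrays than on all E18.5 arrays, Tef lies lower on most, and the genotypes overlap in every panel.

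Across both genotypes Cry1, Nr1d2 and Nr1d1 were higher at term than at E18.5 and Tef was lower (limma, adjusted p under the threshold of 0.05). Per2, below the filter in that fit, was also higher on every term array than on every E18.5 array. Per1 and Cry2 did not pass the test, and Clock had overlapping signals throughout. These 4 calls, 3 higher and 1 lower of 6 members tested, of which Nr1d2 had passed the filter only through term arrays, stand against 45.2% of all 6405 probe sets called in the same fit, 21.6% higher and 23.6% lower. No test compared the members with the other genes.

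Cry1, a repressor of CLOCK and BMAL1, had the lowest adjusted p of the members. Its signal was 358.0, 335.0 and 367.9 in term (-/-) lungs and 459.5, 368.0 and 284.1 in term (+/+) lungs. It was 202.1, 200.8, 234.5, 198.9 and 179.2 in E18.5 (-/-) lungs and 168.4, 205.0, 144.2, 205.3 and 157.1 in E18.5 (+/+) lungs. The lowest term array lay above the highest E18.5 array, and no array of one stage fell within the other. The difference of mean log2(signal + 16), term minus E18.5, was 0.88 ± 0.14 (SE) over 16 arrays with genotype as a covariate (limma, Benjamini-Hochberg adjusted p = 4.78e-05). Within (-/-) lungs it was 0.76 (adjusted p = 0.00991), and within (+/+) lungs 0.996 (adjusted p = 0.0138). Without (+/+) array N or O at term the call in (+/+) lungs was lost (adjusted p = 0.103 and 0.0531). The within-group SD of Cry1 on the log2 scale was 0.198, and only 2.58% of the probe sets tested had a smaller one.

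Nr1d2 and Nr1d1 encode the REV-ERB repressors. Nr1d2 gave signals of 54.2, 31.6 and 50.4 in term (-/-) lungs and 63.9, 54.7 and 49.6 in term (+/+) lungs. It gave 4.6, 18.2, 20.4, 9.4 and 13.2 in E18.5 (-/-) lungs and 13.2, 20.1, 16.2, 26.2 and 18.0 in E18.5 (+/+) lungs. The E18.5 signals were near the low end of the measurable range, and all 10 lay below the lowest term signal of 31.6. The difference of mean log2(signal + 16) was 1.07 ± 0.18 (limma, adjusted p = 0.000108, 16 arrays). Nr1d2 passed the filter only through its term (+/+) arrays, both in this fit and in that of (+/+) lungs alone (log2 difference 1.06, adjusted p = 0.0219), and was below it in the (-/-) fit. With no filter the adjusted p was 0.0199 in (-/-) lungs, where 10.9% of 12422 probe sets were called, and 0.0339 in (+/+) lungs, where 6.46% were. Without (+/+) array O the (+/+) call was lost (adjusted p = 0.0807), and it was also lost with the GAPDH ratio as a covariate (adjusted p = 0.0585). Without (+/+) array N at term Nr1d2 was below the filter, in that fit and over both genotypes.

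Nr1d1 gave 93.4, 100.2 and 109.0 in term (-/-) lungs and 92.0, 122.9 and 79.9 in term (+/+) lungs. It gave 82.5, 40.0, 63.5, 42.9 and 47.3 in E18.5 (-/-) lungs and 92.2, 62.8, 102.6, 53.8 and 55.2 in E18.5 (+/+) lungs. The stages were apart in (-/-) lungs and overlapped in (+/+) lungs, where arrays I and K at E18.5 were as high as the term arrays. The log2 difference over both genotypes was 0.56 ± 0.17 (limma, adjusted p = 0.0113). In (-/-) lungs, where Nr1d1 passed the filter only through the term arrays, it was 0.75 (adjusted p = 0.0274, and 0.063 with no filter), a call lost without (-/-) array D at E18.5 and without each of the 3 term arrays (adjusted p from 0.0508 to 0.0918). In (+/+) lungs it was 0.37 (adjusted p = 0.345). The difference between the genotypes in this stage effect was 0.37 ± 0.34 (95% interval -0.34 to 1.08, limma, adjusted p = 1.0), so the stage effect is not shown to differ between them.

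Per2, a repressor and the Per gene most tied to the timing of the loop, gave low signals. They were 39.5, 56.0 and 51.7 in term (-/-) lungs and 68.2, 42.6 and 49.4 in term (+/+) lungs. At E18.5 they were 13.1, 35.5, 27.6, 31.6 and 23.5 in (-/-) lungs and 38.4, 14.8, 28.3, 22.6 and 29.3 in (+/+) lungs. The 2 stages did not overlap, with 39.5 as the lowest term signal and 38.4 as the highest at E18.5. The latter came from (+/+) array I, where the bacterial controls averaged 35.3. The log2 difference over both genotypes was 0.68 (2-sided exact permutation of stage within genotype, p = 0.000319, the smallest that its 3136 splits allow), and with no filter the limma adjusted p was 0.0071, in a fit that called 27.4% of all probe sets. Within (-/-) lungs, where Per2 passed the filter only through the term arrays, the difference was 0.64 (limma, adjusted p = 0.0778), and within (+/+) lungs, below the filter, 0.71 (exact permutation p = 0.0179, the smallest that 3 against 5 arrays allow). Per2, Cry1 and Nr1d2 were the 3 members whose stages did not overlap over all 16 arrays, each higher at term, which was also true of 4.43% of all 12422 probe sets, and of 3.71% in the lower direction.

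Per1, which responds to hormones and stress as well as to the clock, varied widely between lungs. Its signals were 186.6, 136.8 and 400.0 in term (-/-) lungs and 149.9, 143.7 and 285.6 in term (+/+) lungs. At E18.5 they were 107.2, 183.1, 183.6, 142.0 and 122.6 in (-/-) lungs and 112.1, 59.6, 213.9, 142.6 and 118.9 in (+/+) lungs. In both genotypes 1 of the 3 term arrays stood above all others, and the remaining term arrays lay within the range of the E18.5 arrays of both genotypes. The log2 difference was 0.55 ± 0.23 and did not pass the test (limma, adjusted p = 0.0611, 95% interval 0.06 to 1.03). It passed without (-/-) array G at term (adjusted p = 0.0295), without (+/+) array K at E18.5 (adjusted p = 0.0253), and with the GAPDH ratio as a covariate (adjusted p = 0.0387). The within-group SD of Per1 was 0.53 on the scale of log2(signal + 16), and 85.0% of the probe sets tested had a smaller one. On that scale Dbp followed with 0.496, but on linear signals the coefficient of variation within a group was 23.6 to 58.0% for Per1 and 25.4 to 116.1% for Dbp.

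Tef was the member that fell. Its signals were 304.6, 179.1 and 345.2 in term (-/-) lungs and 260.9, 218.6 and 404.2 in term (+/+) lungs. They were 473.9, 356.3, 453.0, 484.8 and 456.9 in E18.5 (-/-) lungs and 533.0, 499.7, 621.0, 440.4 and 301.1 in E18.5 (+/+) lungs. The stages did not overlap in (-/-) lungs, and in (+/+) lungs array P at term and array M at E18.5 crossed. The log2 difference was -0.69 ± 0.18 over 16 arrays (limma, adjusted p = 0.00408). It was -0.70 in (-/-) lungs (adjusted p = 0.041) and -0.68 in (+/+) lungs (adjusted p = 0.114). The (-/-) call was lost without any 1 of the E18.5 arrays A, C, D and E or the term arrays F and G (adjusted p from 0.0641 to 0.191). The lowest Tef signals at term were on (-/-) array G and (+/+) array O, the 2 arrays with the highest GAPDH ratios, 2.633 and 2.553. With that ratio as a covariate the call over both genotypes held. Without array G the (-/-) difference was -0.43 (limma, adjusted p = 0.191). Whether RNA quality had a part in the Tef difference was not tested.

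Dbp, the other PAR bZIP gene and in adult tissues one of the most strongly cycling transcripts, stayed near the floor. Its signals were 32.5, 22.3 and 20.7 in term (-/-) lungs and 44.2, 7.5 and 5.0 in term (+/+) lungs. They were 4.9, 8.5, 26.7, 6.9 and 5.7 in E18.5 (-/-) lungs and 17.2, 3.8, 17.0, 2.4 and 3.3 in E18.5 (+/+) lungs. All 3 (-/-) lungs and 1 (+/+) lung at term were above 20, as was 1 of 10 at E18.5. The log2 difference was 0.53 (exact permutation of stage within genotype, p = 0.045, and limma adjusted p = 0.0843 with no filter).

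Cry2 and Clock showed no stage difference that the arrays could resolve. Cry2, the second CRY repressor, was 69.5, 70.9 and 54.6 in term (-/-) lungs and 83.8, 70.6 and 59.0 in term (+/+) lungs. It was 120.7, 40.3, 78.8, 70.7 and 76.0 in E18.5 (-/-) lungs and 111.5, 70.9, 71.5, 53.0 and 72.4 in E18.5 (+/+) lungs. Its log2 difference was -0.11 ± 0.18 (95% interval -0.47 to 0.26, limma, adjusted p = 0.649), in contrast to that of Cry1, although the difference between these 2 genes was not tested. Clock, the activator, was 29.2 to 46.0 in term (-/-) lungs, 39.9 to 49.0 in term (+/+) lungs, 25.4 to 54.3 in E18.5 (-/-) lungs and 35.2 to 54.8 in E18.5 (+/+) lungs. The 4 groups of Clock overlapped, and the log2 difference by stage was 0.07 (exact permutation p = 0.553).

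**Figure D2:**
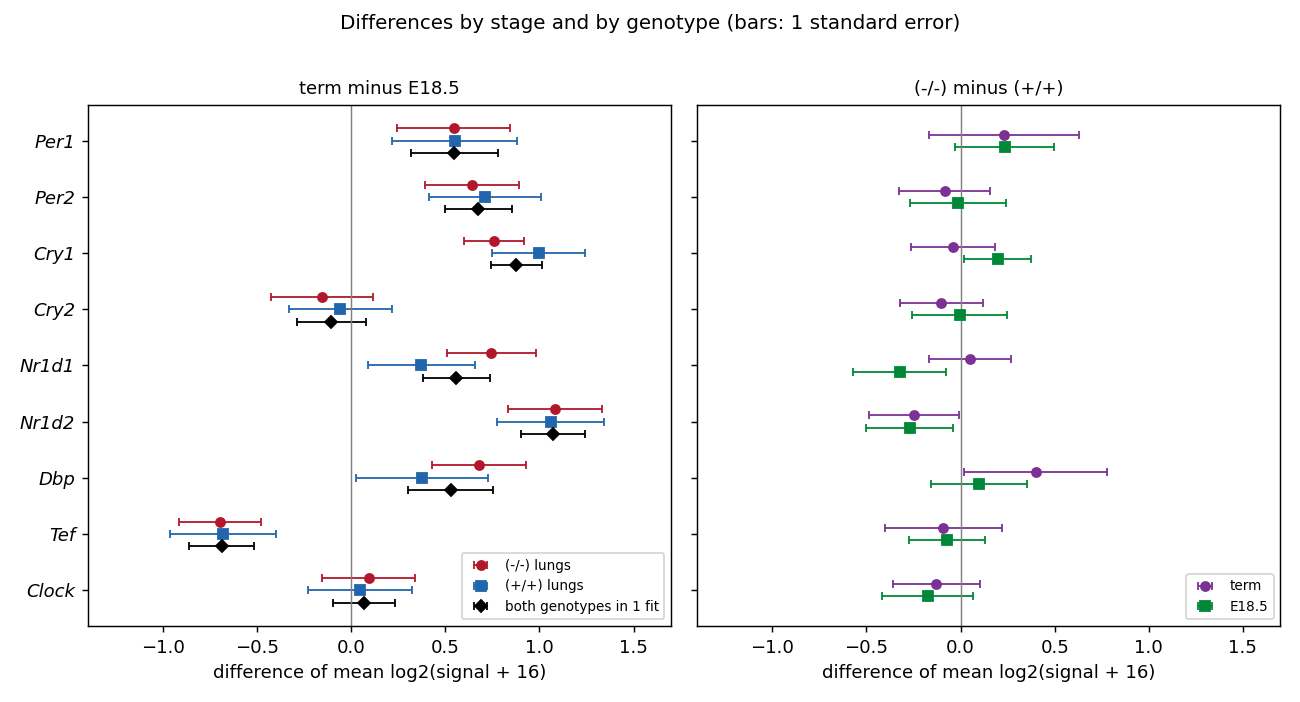
Differences of mean log2(signal + 16) for the 9 clock genes, by stage (left, term minus E18.5, in (-/-) lungs, in (+/+) lungs and over both) and by genotype (right, (-/-) minus (+/+), at term and at E18.5), fitted with limma with no filter; bars are 1 standard error. On the left Nr1d2 and Cry1 lie farthest above 0 and Tef below it, with like values in both genotypes, and on the right all points lie within 0.40 of 0.

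Within each genotype the counts followed the same direction. In (-/-) lungs 6 of the 11 probe sets were tested, of which 2 were higher at term, Cry1 and Nr1d1, and 1 lower, Tef, against 26.9% of 6145 probe sets called, 13.8% higher and 13.1% lower. In (+/+) lungs 6 were tested and 2 were higher, Cry1 and Nr1d2, with none lower (limma), against 18.7% of 6097, 10.7% higher and 8.07% lower, and 3 members against 34.5% of probe sets had an unadjusted p under 0.05. Of the members tested, 2 in the (-/-) fit and 1 in the (+/+) fit had passed the filter only through the term arrays, so these counts are not a share of all members. The stages did not overlap in (-/-) lungs for 5 of the 11 probe sets, 4 higher at term (Cry1, Per2, Nr1d1 and Nr1d2) and 1 lower (Tef), against 9.2% and 13.1% of all probe sets. In (+/+) lungs they did not overlap for 4, of which 3 were higher (Cry1, Per2 and Nr1d2) and 1, a Cry1 probe set without measurable signal, was lower, against 7.04% and 11.4%. The stage differences of the 9 members had the same sign in both genotypes, from 1.08 for Nr1d2 to -0.70 for Tef in (-/-) lungs and from 1.06 for Nr1d2 to -0.68 for Tef in (+/+) lungs, although with array quality weights Cry2 in (+/+) lungs turned to 0.08. The 2 genotypes share no arrays, but their lungs may share litters and hours of collection, so they are not shown to be independent. The stage differences between the genotypes differed by at most 0.37 on the log2 scale for the 6 members tested, from -0.24 for Cry1 to 0.37 for Nr1d1 (limma interaction, adjusted p = 1.0 for each, with 0.0% of 6405 probe sets called, and no member and 1.47% of probe sets at an unadjusted p under 0.05).

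No clock gene was called between the genotypes at either stage. At term 7 member probe sets were tested and none was called (limma, all adjusted p = 1.0, none with an unadjusted p under 0.05), against 0.0% of 5831 probe sets called and 0.686% with an unadjusted p under 0.05. At E18.5, with 5 tested, none was called or had an unadjusted p under 0.05, against 0.0343% of 5825 called and 5.3% with such a p. The 2 genotypes overlapped for all 11 probe sets at both stages, while among all probe sets 4.53% had no overlap at term, and 0.757% had none at E18.5. In (-/-) lungs at term, relative to (+/+), the log2 differences of the members tested ran from -0.25 for Nr1d2 (95% interval -0.77 to 0.27) to 0.23 for Per1 (-0.65 to 1.10). At E18.5 they ran from -0.32 for Nr1d1 (-0.83 to 0.18) to 0.23 for Per1 (-0.32 to 0.79). The intervals for Cry1 were -0.60 to 0.52 at term and -0.17 to 0.57 at E18.5. With 3 arrays against 3 an exact permutation test cannot go below 0.1, and the intervals still hold a difference of 1.10 on the log2 scale for Per1 at term.

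The groups of each gene were also put in order of mean signal, and neighbours in that order were compared. The order came from these same arrays, so its p-values add no separate evidence for a stage difference. For Cry1, Per2 and Nr1d2 the 2 term groups were the 2 highest, and the step that separated them from the E18.5 groups was the only one between neighbours without overlap (exact permutation p = 0.0179, 0.0357 and 0.0179). For Tef the same step ran the other way, with 294.6 ± 97.3 in term (+/+) lungs next to 445.0 ± 51.2 in E18.5 (-/-) lungs (SD, n = 3 and 5), and these 2 groups overlapped (exact permutation p = 0.0357). In Per1, Cry2, Nr1d1, Clock and Dbp all neighbouring groups overlapped and none of the 3 steps passed an exact permutation test at 0.05.

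Other genes of the clock were examined to see how far the pattern extended. The probe set of highest mean signal stood for each gene. Of a list of 18 further core clock genes 10 were on the array and 9 were tested, of which 3 were higher and 2 lower at term (limma, over both genotypes), against 21.6% and 23.6% of all probe sets, with a median log2 difference of -0.003 against -0.06 over all probe sets tested. Arntl, whose product BMAL1 is the partner of CLOCK, was 118.3, 138.2 and 117.1 in term (-/-) lungs and 134.3, 121.3 and 107.7 in term (+/+) lungs, against 34.6 to 70.4 in E18.5 (-/-) lungs and 34.9 to 67.8 in E18.5 (+/+) lungs. No array of one stage reached the other, and the log2 difference was 1.10 ± 0.16 (adjusted p = 1.32e-05). Arntl was called higher at term in each genotype, and Nr1d1 over both genotypes and in (-/-) lungs but not in (+/+) lungs. In adult tissues these 2 genes are known to peak at opposite times of day. Whether the hour of collection differed between the stages was not tested. Rora, the activator at ROR elements, rose by 0.54 (adjusted p = 0.00618), and Bhlhe40, a repressor at E-boxes that also answers to hypoxia, rose by 0.81 (adjusted p = 0.00981). Rora was called in neither genotype alone (limma, adjusted p = 0.0694 in (-/-) and 0.173 in (+/+) lungs). Bhlhe40 was called in (-/-) lungs (limma, adjusted p = 0.0151) but not in (+/+) lungs (0.301). Timeless, known in mammals mainly for its role at the replication fork, fell by 0.45 (adjusted p = 0.0263). It was called in neither genotype alone (limma, adjusted p = 0.232 in (-/-) and 0.146 in (+/+) lungs). The probe sets of Csnk1d, a kinase that marks PER proteins for breakdown, disagreed in size. That of highest signal differed by -0.76 (adjusted p = 0.00926), another by -1.03 (adjusted p = 0.00597) and the last by -0.15, which was not called (adjusted p = 0.49). For Nfil3 the counted probe set, whose suffix marks probes that may bind related sequences, differed by 0.32 and was not called (adjusted p = 0.219). The other Nfil3 probe set, of lower mean signal, differed by 1.07 (adjusted p = 0.000268).

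Of a list of 12 clock outputs 11 were on the array and 9 were tested, of which 3 were higher and 1 lower, against the same 21.6% and 23.6% of all probe sets, with a median log2 difference of 0.19. Noct, a rhythmic transcript whose protein acts on NADP(H), was 239.3, 290.4 and 275.1 in term (-/-) lungs and 378.1, 260.5 and 259.1 in term (+/+) lungs, against 72.2 to 165.2 in E18.5 (-/-) lungs and 84.5 to 159.9 in E18.5 (+/+) lungs. The stages did not overlap, and the log2 difference was 1.21 ± 0.17 (adjusted p = 9.46e-06). These values come from a probe set whose suffix marks probes that may bind related sequences, and the other Noct probe set tested, without that suffix, differed by 0.35 and was not called (adjusted p = 0.145). Nampt, the enzyme that limits NAD salvage, rose by 1.02 (adjusted p = 0.000136). It was called in (-/-) lungs (limma, adjusted p = 0.00185) but not in (+/+) lungs (0.0621). Usp2, a deubiquitinase, had no settled direction, since the probe set of higher signal differed by -0.51 (adjusted p = 0.0246) and its other one by 0.95 (adjusted p = 0.00393). The calls of Timeless and of the first of these Usp2 probe sets were lost without (-/-) array G at term (adjusted p = 0.0563 and 0.0739), that of Timeless without (+/+) array N (0.0981) and that of Usp2 without (-/-) array H (0.0514). For Klf9 the counted probe set differed by 0.20 and was not called (limma, adjusted p = 0.291). Its other probe set differed by 0.91 (adjusted p = 0.00377).

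Per1 shares its hormone and stress inputs with immediate early genes, and a list of 11 of these and of glucocorticoid targets was examined beside it. Of 9 tested 8 were higher at term and none lower, against 21.6% and 23.6% of all probe sets, with a median log2 difference of 2.59. They ran from 0.10 for Fkbp5, which was not called (adjusted p = 0.684), and 1.12 for Egr1 to 4.22 for Fos. Egr1 differed by 2.07 in (+/+) lungs (limma, adjusted p = 0.00019) and by 0.17 in (-/-) lungs (adjusted p = 0.779). Between the genotypes at term none of the 9 was called (limma; 0.0% of all probe sets), and 5 had an unadjusted p under 0.05, against 0.686% of all probe sets. Fos, a subunit of AP-1, was 328.2, 1636.7 and 712.1 in term (-/-) lungs and 2283.4, 2487.1 and 2239.0 in term (+/+) lungs, against 27.5 to 81.3 in E18.5 (-/-) lungs and 34.2 to 85.3 in E18.5 (+/+) lungs, a log2 difference by stage of 4.22 ± 0.31 (adjusted p = 6.18e-09). Dusp1, a phosphatase of MAP kinases, and Nr4a1, an orphan nuclear receptor, differed by 3.30 and 3.33, and Ier2 by 2.27. For each of these 4 genes every term array lay above every E18.5 array, but they were named for the lowest p in these same data, which favors such separation. Per1, with 0.55, had term arrays within the E18.5 range, as had Egr1 and Fkbp5 of the list. The difference between Per1 and the list was not tested.

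**Figure D3:**
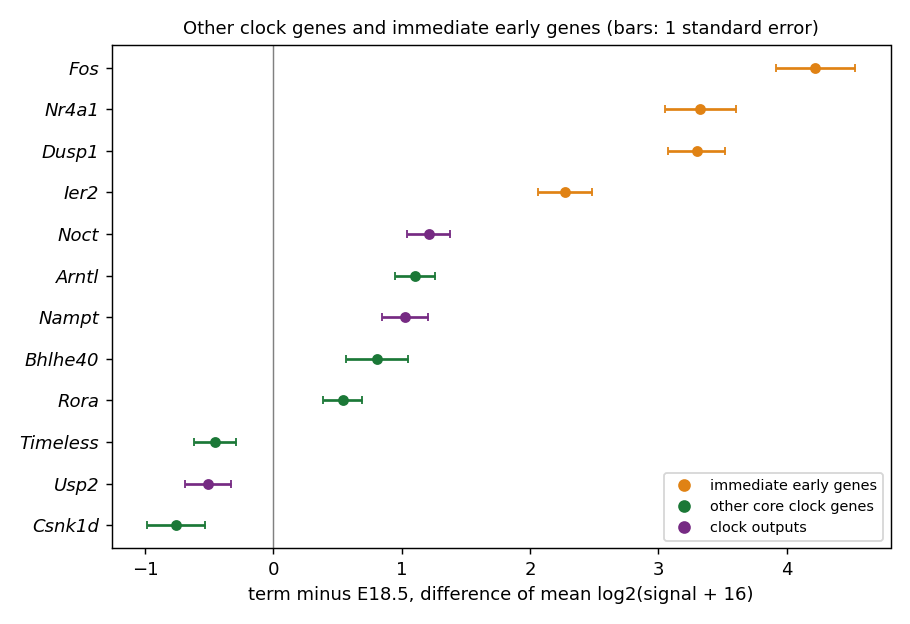
Log2 difference, term minus E18.5 over both genotypes (16 arrays, limma), of 12 named genes from the lists of other core clock genes, clock outputs and immediate early genes, each by its probe set of highest mean signal; points are fitted differences of mean log2(signal + 16) and bars 1 standard error. Fos, Nr4a1, Dusp1 and Ier2 lie above 2, Noct, Arntl and Nampt near 1, and Timeless, Usp2 and Csnk1d below 0. The other tested probe set of Usp2, not drawn, lies at 0.95.

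Whether the members varied together from lung to lung was described by the correlation of their deviations from the group means, over 16 arrays, where the quality of an array is common to all its probe sets. Of 36 pairs of genes the highest were Per2 with Clock (r = 0.67, Spearman's rho = 0.68) and Cry2 with Nr1d1 (r = 0.66, rho = 0.67), and the lowest was Cry2 with Nr1d2 (r = -0.60, rho = -0.39). Per2, Clock and Dbp were below the filter in the fit of all arrays, so their coefficients rest on low signals. Cry1 and Nr1d2, which moved together by stage, had r = 0.50 within groups. Per1 and Per2 had r = 0.36 and Nr1d1 and Nr1d2 r = -0.43. After the 2 arrays farthest out on the first gene were left out, the values were 0.53 for Per2 with Clock, 0.47 for Cry2 with Nr1d1 and -0.33 for Cry2 with Nr1d2, and other pairs were then the extremes, Cry2 with Dbp (0.63) and Clock with Tef (-0.59). By rho the lowest pair was Per1 with Cry2 (-0.54). The order of the pairs thus changed with the arrays and the measure. The 36 coefficients were of mixed sign, with 16 of them below 0. Whether the members shared a rhythm was not tested.

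**Figure D4:**
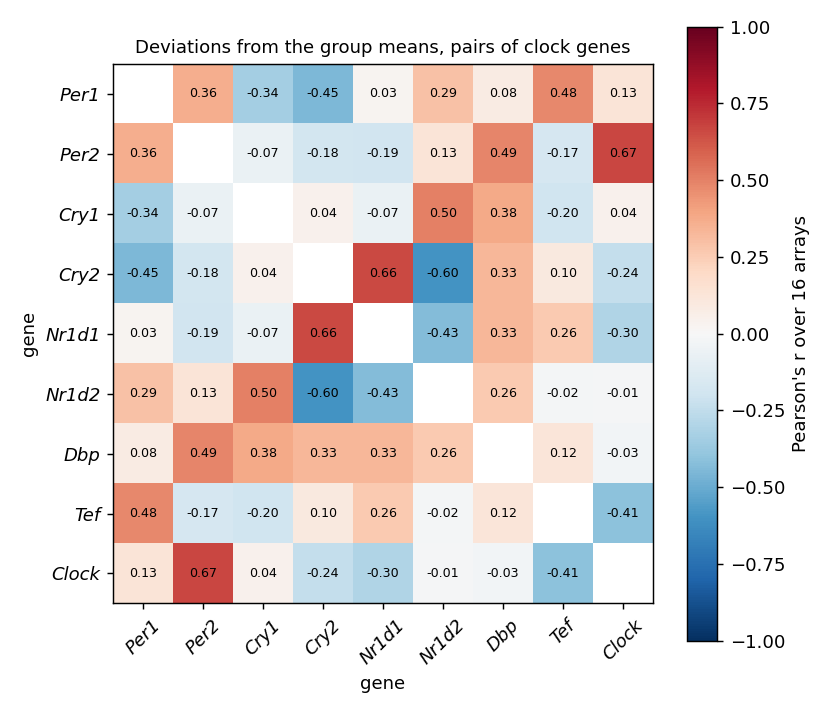
Pearson's r between pairs of the 9 clock genes over 16 arrays, computed on deviations of log2(signal + 16) from the mean of the array's own group; red is positive and blue negative. Per2 with Clock (0.67) and Cry2 with Nr1d1 (0.66) are highest and Cry2 with Nr1d2 (-0.60) is lowest. Per2, Clock and Dbp were below the filter in the fit of all arrays.

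The probe sets whose pattern over the 16 arrays was most like that of a member were found among 5818 tested probe sets with 1 symbol, by Pearson's r of log2(signal + 16), which counts differences between the groups as well as within them. For Cry1 they were Cyp4v3 (0.955), Cytip (0.951) and Tmem30a (0.944). For Nr1d2 they were AW549877 (0.933), Ifrd1 (0.929) and Ube2d3 (0.929), and for Nr1d1 Atf4 (0.911), Mafg (0.881) and Tmem129 (0.877). The likeness was of the same order for Tef with Prpf6 (0.91), Src (0.897) and Prss8 (0.89) and for Per1 with Atp6v0b (0.905), Lpin2 (0.886) and Ubxn1 (0.88), and lowest for Cry2, with Cop1 (0.829), Map6 (0.814) and Iars2 (0.798). No member was among the 3 nearest of another.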

How the data were processed

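RNA of 16 lungs was hybridized to Affymetrix U74Av2 arrays. Per the labels and methods, the authors computed a linear signal intensity per probe set in Microarray Suite 5.0 and scaled each array to a common mean. Here 16 was added to each signal before log2, and no array was rescaled. After the filter on low signals, limma 3.58.1 (R 4.3.3; lmFit, then eBayes with an intensity trend) gave the differences, adjusted by Benjamini-Hochberg over all probe sets tested. The fits were tested on simulated data. Single probe sets were compared by 2-sided exact permutation. Probe sets were named through the platform annotation. The genes named were all members, up to 8 other clock genes and 4 immediate early genes of lowest p, and the 3 nearest patterns of each member tested, and the probe set of highest mean signal stood for each listed gene. Nfil3 and Klf9 were named as well, because another probe set of theirs was called where the counted one was not. The members and lists were chosen with earlier results of these data known. Alternatives were quantile normalization, 64 in place of 16, no filter, array quality weights, the GAPDH ratio as covariate, 1 fit of all arrays, the methods' t-test and leaving out each array. The litter of each lung is not given in the sources used here, and the number of arrays limits the precision.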

Additional observations from a re-analysis of the deposited data

Results flagged for a closer look

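Within groups of 5 arrays, 48 groups of members and named genes were examined for an array far from the others, and 7 were found. The cutoff marks about 1 in 20 groups of normally distributed values. It was applied here to linear signals, so the 7 are not shown to exceed chance. Dbp was 26.7 on array C of the E18.5 (-/-) lungs, against 4.9 to 8.5 on the other 4. Tef was 356.3 on array B of the same group, against 453.0 to 484.8. Csnk1d was 1690.1 on array K of the E18.5 (+/+) lungs, against 733.3 to 1004.3. Nr4a1 was 3.4 on array A of the E18.5 (-/-) lungs, against 31.3 to 36.0. The other 3 concerned the 2 Cry1 probe sets without measurable signal, 161225_r_at with 2.9 on array E and 4.0 on array K, and 94421_r_at with 5.6 on array K.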

How the results depend on the processing

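Over both genotypes Cry1, Nr1d2, Nr1d1 and Tef kept their direction and their call under quantile normalization, an added 64, no filter, array quality weights and the GAPDH ratio, and without any 1 array in which they passed the filter, and 3 to 5 clock probe sets were called without 1 array, against 4. Per1 passed with array quality weights (0.513, adjusted p = 0.05 after rounding) and with the GAPDH ratio (0.632). Timeless lost its call with the GAPDH ratio (-0.384, adjusted p = 0.0608) and the brighter Usp2 probe set with quantile normalization (-0.348, adjusted p = 0.203).

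Within genotypes calls were less stable. In (-/-) lungs 1 to 3 clock probe sets were called without 1 array, against 3, the 1 without term array F. Tef lost its call there with no filter (adjusted p = 0.0603), with all arrays in 1 fit (0.0609) and by the methods' t-test (0.0618), and Per2 gained one with quantile normalization (0.742, adjusted p = 0.0374). In (+/+) lungs 2 were called, and 1 with the GAPDH ratio and 1 by the methods' t-test, where Cry1 missed (adjusted p = 0.0508). Without 1 array it was 0 to 3, the 0 without term array N or O.

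The counts over all genes moved too. Between genotypes at E18.5 the 2 calls became 0 by the methods' t-test, and 0 to 3 without 1 array, the 0 without (+/+) array L. By stage in (-/-) lungs 1654 became 1032 by the t-test and 893 to 1769 without 1 array, lowest without F (893) and G (1101). By stage in (+/+) lungs 1142 became 1941 with array quality weights and 355 by the t-test, and 335 to 1269 without 1 array, lowest without N (335) and O (585).

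Differences near 0 that were never called changed sign. Between genotypes at E18.5 Cry2 became 0.004 with 64 added, 0.134 with array quality weights and 0.027 by the t-test's ratio of means, and Tef 0.102 with array quality weights. At term Tef became 0.102 and Nr1d1 -0.039 with array quality weights, and by stage in (+/+) lungs Cry2 became 0.081. Without 1 array the genotype differences at E18.5 ran between -0.224 and 0.027 for Tef and between -0.156 and 0.164 for Cry2. At term they ran between -0.271 and 0.177 for Tef, -0.184 and 0.538 for Per1, -0.198 and 0.063 for Per2, -0.21 and 0.122 for Cry1, -0.205 and 0.001 for Cry2, and -0.07 and 0.197 for Nr1d1. By stage in (+/+) lungs Cry2 ran between -0.16 and 0.069. The causes were not tested. No paired analysis was possible because the groups share no replicate labels.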
